A study of Mus musculus with 24 samples.

Results

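The Dex by IL27 interaction was read from the 12 day 9 libraries among the 24 of the series, 3 in each of 4 groups, chosen by their labels and not by any measured value. All 4 groups were WT CD8+ T cells, which here means cells with a floxed glucocorticoid receptor gene (Nr3c1 fl/fl) and no E8i-Cre, so the receptor gene was intact. Naive CD8+ CD62L-high CD44- cells from mouse spleen and lymph node had been stimulated for 3 days with plate-bound antibodies to CD3 and CD28 (1 µg/ml each), rested for 3 days in IL2 (5 ng/ml) and restimulated for 3 days. During both stimulations the medium held no addition (Ctrl), dexamethasone at 10 nM (Dex, a synthetic glucocorticoid), IL27 at 25 ng/ml, or both agents (Dex+IL27, labelled combo). Each library came from 1000 sorted cells, and nothing in the labels ties replicates to different mice or wells. The p-values therefore cover the spread among these libraries, which may be technical.

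Glucocorticoids enter the cell and bind the receptor NR3C1, which moves to the nucleus and raises or lowers transcription of its targets. IL27 binds a surface receptor made of IL27RA and gp130 and signals through JAK kinases to STAT transcription factors, which drive genes also known as interferon-response genes. Both signals are known to raise Il10 and several inhibitory receptors in T cells and to restrain effector cytokines. The question of the design is whether the pair gives what the single agents add up to. Addition was defined in 2 ways. The log2 sum multiplies the fold changes, Dex level times IL27 level over Ctrl level, and the linear sum adds the differences, Dex level plus IL27 level minus Ctrl level. The log2 interaction is the observed log2 level with both agents minus the log2 sum, and the linear interaction is the same in CPM (estimated counts scaled to the TMM-adjusted library size). Positive values mean a level above the sum, which for a gene lowered by both agents is a smaller fall than the sum of the falls.

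Library totals ran from 16091050 to 19018440 estimated counts. Levels of replicates correlated at no less than 0.984, and no correlation between groups was above 0.982. IL27 replicate 1 gave both of these limits and stood somewhat apart, so the leading counts are given with and without it. The ribosomal RNA precursor Rn45s took 9.11% ± 0.15 of counts in Ctrl, 14.6% ± 0.49 in Dex, 14.1% ± 0.41 in IL27 and 16.04% ± 0.31 with both agents (SD, n = 3), and its part in the results was not tested beyond fits that left it out. Summed CD8 T cell markers (Cd8a, Cd8b1, the CD3 genes, Lck, Zap70 and Cd247) lay between 2161 and 3014 CPM in every library. The 11 myeloid and dendritic markers summed to 9.32 to 10.5 CPM in Ctrl, 26.03 to 26.8 in Dex, 25.7 to 34.3 in IL27 and 33.6 to 39.2 in Dex+IL27, with Lyz2, Emr1 and Siglech at 0 in all Dex and all Dex+IL27 libraries. B cell markers summed to 16.3 to 35.8 CPM with Ms4a1 and Pax5 at 0 throughout, CD4 T cell markers to 12.2 to 21.4, and markers of NK and gamma delta T cells and of erythroid cells and platelets to no more than 12.1 and 5.81 CPM. Of the 6 myeloid markers tested, Cd68 and Zbtb46 were below both sums and none was above (9.27% and 13.3% of all genes). The linear call of Cd68 was lost with many of the single libraries left out. That of Zbtb46 was lost in a few alternatives, the replicate block among them. The part of such cells in the results was not tested, and in these bulk samples fewer cells of a type and less RNA per cell cannot be told apart.

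Departures from the sum went both ways. On the log2 scale about as many genes were above the sum as below it, and on the linear scale more were above. Of 12320 genes tested, 3509 (28.5%) had a log2 interaction past the test (edgeR's quasi-likelihood test, Benjamini-Hochberg adjusted p under 0.05), 1693 above the sum (13.7%) and 1816 below (14.7%). On the linear scale 3260 genes passed (26.5%), 2074 above (16.8%) and 1186 below (9.63%). Without IL27 replicate 1 these counts were 3374 and 3224. Both scales placed 1640 genes above (13.3%) and 1142 below (9.27%), and they disagreed in direction for 5, namely Tsc22d3, Klra7, Lif and 5031414D18Rik, which were below the log2 sum and above the linear sum, and Plaur, which was the opposite. A further 670 genes were below the log2 sum only, and 430 were above the linear sum only. For 693 genes the linear sum lay below 0, a level no gene can have, so being above it says little. Of the 2074 genes above the linear sum, 490 were of this kind, Lif among them. The median log2 interaction over all genes was -0.02.

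**Figure D1:**
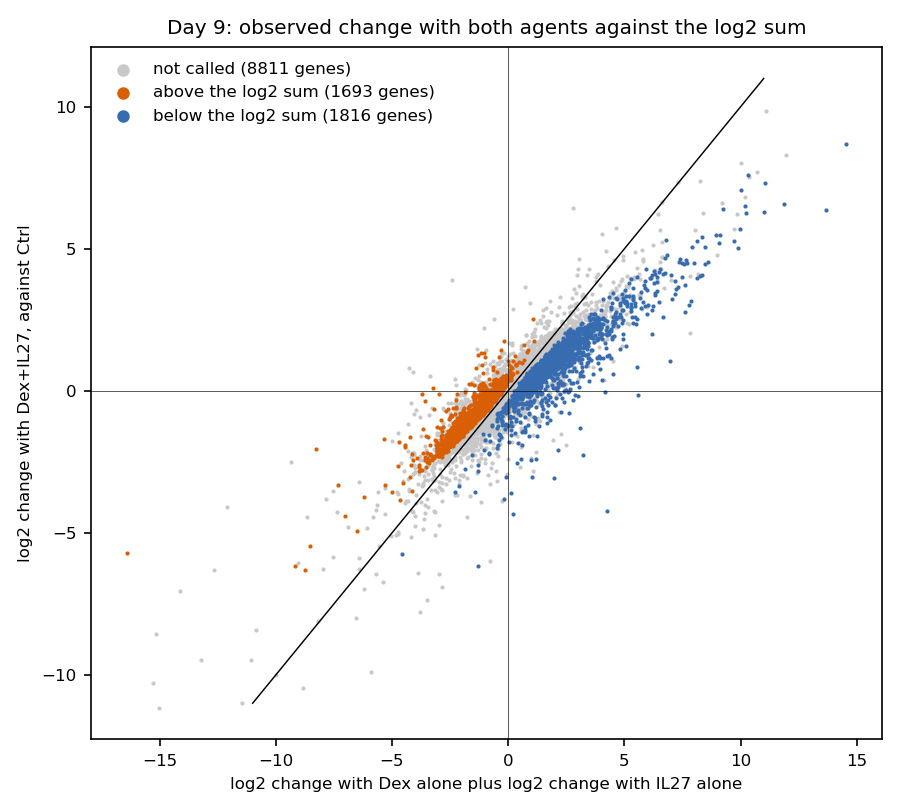
Each point is 1 of 12320 genes, with the sum of its log2 changes under Dex alone and IL27 alone on the x axis and its log2 change with both agents on the y axis, all against the same Ctrl libraries, so both axes share the error of Ctrl. The line marks equality: the 1816 genes below the sum lie mostly right of 0, among genes raised, and the 1693 above it mostly left of 0, among genes lowered.

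The 2 directions followed what the agents did alone. Of the 2694 genes raised by each agent (21.9% of those tested), 1447 fell short of the log2 sum and 846 fell short of the linear sum. Only 3 of them, Tigit, Adora2a and Hip1r (levels of 51.8, 68.9, 68.8 and 134 CPM for Hip1r in Ctrl, Dex, IL27 and Dex+IL27, with a log2 call lost in 10 alternatives), went above the log2 sum, and 28 went above the linear sum. Of the 2701 genes lowered by each agent (21.9%), 1401 were above the log2 sum, that is, less lowered than the sum, and 6 were below it. The single-agent changes and the interaction share the Ctrl libraries, so an error in Ctrl enters all of them. The pair went beyond each single agent for part of the genes. Among genes raised by both, the combination was beyond each agent alone for 558 and beyond 1 agent only for 669. It differed from neither by the test for 1292 and fell short of at least 1 agent for 175. For genes lowered by both these counts of the combination were 755, 656, 1214 and 76. It kept the direction against Ctrl in 2567 of 2694 and 2618 of 2701 genes, and 8 genes raised by each agent were below Ctrl with both, Bcl2 and Adora2b among them. Of 3932 genes that neither agent moved alone by the test, 64 were above the log2 sum and 93 below.

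Dex alone passed the test for 6850 genes (55.6%), IL27 alone for 7074 (57.4%) and the combination for 8238 (66.9%), all against Ctrl. The combination differed from Dex in 3942 genes (32.0%), 1834 higher and 2108 lower, and from IL27 in 3212 (26.1%), 1445 higher and 1767 lower. With library totals as the only scaling those splits moved to 1400 higher and 2647 lower than Dex, and to 1117 higher and 2212 lower than IL27. Without IL27 replicate 1 the combination differed from IL27 in 3964 genes.

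Tsc22d3, the gene for GILZ, a glucocorticoid-induced protein that restrains inflammatory transcription, shows how the scales part. Its level was 22.2, 17.3 and 20.4 CPM in Ctrl, 467, 376 and 451 in Dex, 117, 96.8 and 94.4 in IL27 and 766, 819 and 803 in Dex+IL27. No groups overlapped, and every Dex+IL27 library was above every Dex library. The mean of 796 ± 27.0 CPM (SD, n = 3) with both agents was 1.55 times the linear sum of 514 CPM and 0.358 times the log2 sum of 2223 CPM. The linear interaction was 282 ± 43.8 CPM (SE; adjusted p = 0.0003 by a Wald test on the edgeR fit) and the log2 interaction -1.48 ± 0.15 (edgeR adjusted p = 9.15e-06). The pair therefore gave more transcripts than the 2 increments added, and fewer than the folds multiplied. Klra7, a lectin-like receptor gene whose reads may be shared with close family members, rose from 0.20 ± 0.16 CPM in Ctrl to 11.2 ± 1.36 in Dex, 3.94 ± 1.85 in IL27 and 27.9 ± 5.38 with both, 1.86 times the linear sum. Its linear call was lost with Dex+IL27 replicate 1 or replicate 2 left out (adjusted p = 0.110 and 0.077 by the Wald test on the edgeR fit). Ctrl levels near 0 make the log2 sums of Klra7 and of the transcript 5031414D18Rik (15.4 ± 2.57 CPM with both agents) uncertain; the log2 interaction of 5031414D18Rik was -2.73 ± 0.58 in edgeR and 0.41 with limma on FPKM.

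**Figure D2:**
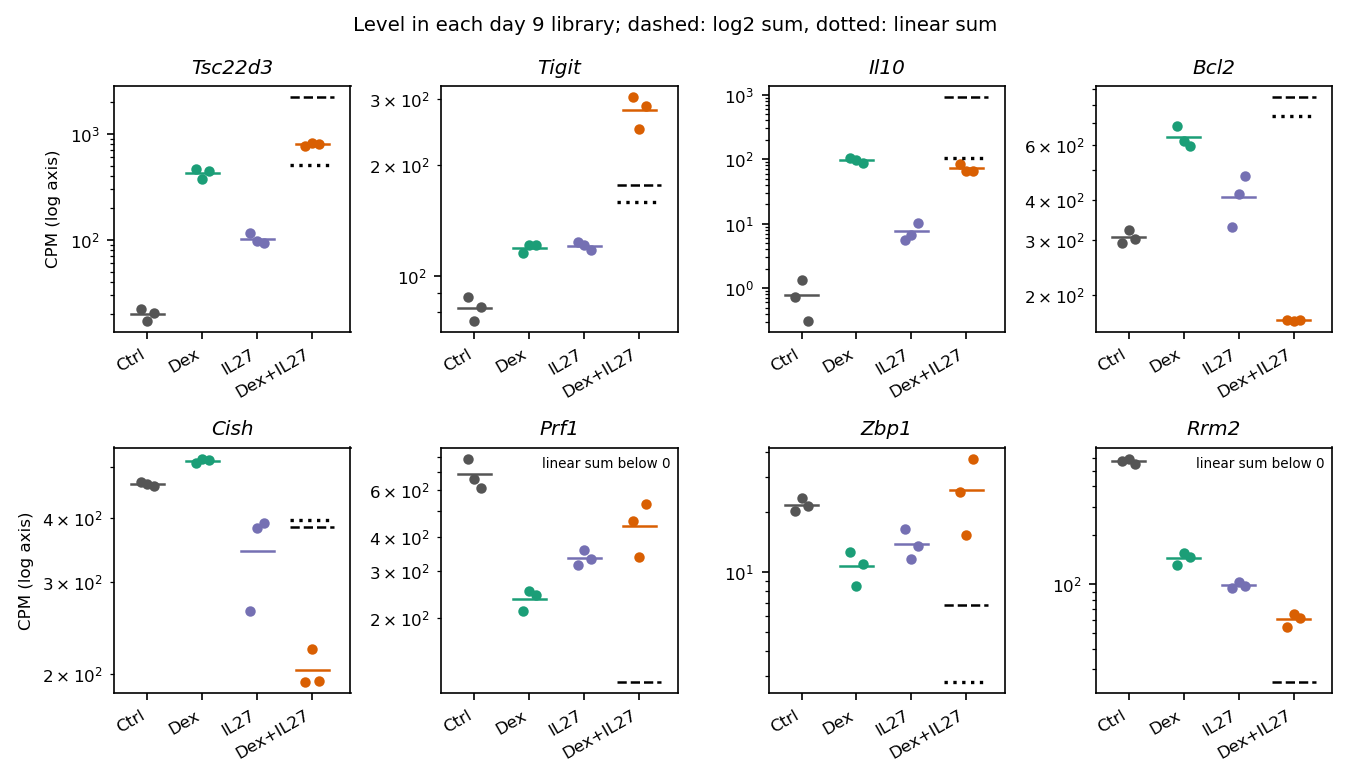
Points are the 12 libraries, in CPM on a log axis, bars are group means, and the dashed and dotted lines over Dex+IL27 mark the log2 sum and the linear sum (not drawn where it is below 0). Tsc22d3 lies between its sums, Tigit, Prf1, Zbp1 and Rrm2 above theirs, and Il10, Bcl2 and Cish below theirs.

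Among the entry points of the signals, the receptor genes themselves showed no departure past the test. Nr3c1, the glucocorticoid receptor, stood at 15.2 ± 0.63 CPM in Ctrl, 31.2 ± 0.58 in Dex, 17.9 ± 0.52 in IL27 and 30.7 ± 2.71 with both (SD, n = 3; log2 interaction -0.26 ± 0.13, edgeR adjusted p = 0.148). Il27ra and Il6st, the receptor chains for IL27, had log2 interactions of -0.09 ± 0.13 and -0.41 (adjusted p = 0.625 for Il27ra), and each was raised by each agent. Of the 10 genes of this list, 3 were above the log2 sum (13.7% of all genes), all chaperones of the receptor complex that both agents lowered (Hsp90aa1, Fkbp4 and Hsp90ab1), and none was below. For Hsp90aa1 the level went from 1196 CPM in Ctrl to 421 in Dex, 447 in IL27 and 268 with both.

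Of 23 glucocorticoid response genes tested, none was above the log2 sum and 7 were below it (30.4%), against 13.7% and 14.7% of all genes (median log2 interaction -0.32, against -0.02 over all genes), while on the linear scale 1 was above and 2 were below (16.8% and 9.63% of all genes). Dex raised 17 of the 23 and IL27 raised 15. Of all genes raised by each agent, 53.7% were below the log2 sum. On the linear scale 20 of the 23 were not called, which does not show that the pair matched the sum. Fkbp5, a receptor co-chaperone and standard glucocorticoid target, was at 35.1, 36.4 and 33.5 CPM in Ctrl, 126, 111 and 124 in Dex, 39.2, 29.4 and 35.8 in IL27 and 127, 122 and 131 with both. IL27 alone left it overlapping Ctrl, the combination overlapped Dex, and the log2 interaction was 0.09 ± 0.13 (edgeR adjusted p = 0.677). The metallothioneins Mt1 and Mt2, raised by each agent, reached 599 and 287 CPM with both, beyond each agent by the test, with no interaction past it. The genes that fell short on both scales were Il1r2, the decoy receptor for IL1 (15.7 CPM in Ctrl, 92.4 in Dex, 52.1 in IL27, 65.1 with both), and Irs2, an insulin receptor substrate (3.98, 16.9, 7.36 and 9.93 CPM in the same order).

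The list of STAT and interferon response genes held members on both sides. Of 40 genes tested, 15 were above the log2 sum (37.5%, against 13.7% of all genes) and 8 below (20%, near the 14.7% of all genes; median 0.16), and 13 and 8 held the same side on both scales. Those above were interferon-induced genes, and those below were mostly feedback and survival genes of cytokine signalling. Promoters of list members on both sides were searched on both strands for a core of the interferon-stimulated response element (ISRE; GAAA, any 2 bases and a second GAAA) and for TTCNNNGAA, the gamma-activated site (GAS) that STAT dimers bind. The window was the 250 bases before the listed start in RefSeq (GRCm38.p6), which held 7 of the 13 genes above both sums and 7 of the 8 below. The ISRE letters were in 4 of the 7 above (57.1%; Bst2, Igtp, Irgm1 and Isg15), in 1 of the 7 below (14.3%; Socs1) and in 3.46% of 27025 genes with a promoter. The GAS letters were in 28.6% of each set and in 8.13% of all; Bst2 and Igtp held both motifs. The full glucocorticoid element (AGAACA, any 3 bases and TGTTC) was in none of these promoters and in 0.0333% of all. It is too rare for its absence from so few promoters to say anything. Its first part, AGAACA, was also in none of them, against 18.2% of all and 13.1% of the 9149 genes tested that had a promoter. With 7 promoters on each side that absence says little. Shown 5′ to 3′ with the match in capitals, matches that overlap forming 1 run, are 3 promoters with the ISRE letters and 1 with the GAS letters.
Isg15, chr4:156200819-156201068, minus strand: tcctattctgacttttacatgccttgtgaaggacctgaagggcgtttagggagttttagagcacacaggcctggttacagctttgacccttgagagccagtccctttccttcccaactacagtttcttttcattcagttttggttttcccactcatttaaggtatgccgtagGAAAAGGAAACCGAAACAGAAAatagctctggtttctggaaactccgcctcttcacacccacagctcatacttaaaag
Irgm1, chr11:48871421-48871670, minus strand: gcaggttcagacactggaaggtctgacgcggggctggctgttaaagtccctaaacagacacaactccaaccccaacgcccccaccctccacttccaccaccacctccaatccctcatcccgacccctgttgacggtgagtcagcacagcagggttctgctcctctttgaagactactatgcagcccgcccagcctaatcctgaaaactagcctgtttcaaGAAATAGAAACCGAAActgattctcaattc
Igtp, chr11:58199306-58199555, plus strand: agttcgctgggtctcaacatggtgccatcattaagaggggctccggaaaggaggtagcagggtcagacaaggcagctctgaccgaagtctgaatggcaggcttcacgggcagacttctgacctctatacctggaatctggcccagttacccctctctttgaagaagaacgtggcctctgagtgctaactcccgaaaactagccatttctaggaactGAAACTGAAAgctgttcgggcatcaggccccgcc
Socs3, chr11:117969367-117969616, minus strand: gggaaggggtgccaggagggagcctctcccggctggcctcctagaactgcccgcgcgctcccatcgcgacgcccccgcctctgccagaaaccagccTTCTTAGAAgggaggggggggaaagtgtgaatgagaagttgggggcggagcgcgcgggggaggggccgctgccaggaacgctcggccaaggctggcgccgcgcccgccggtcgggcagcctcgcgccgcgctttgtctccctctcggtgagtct
The first match ended 68, 20 and 24 bases before the listed start in Isg15, Irgm1 and Igtp, and 145 bases before it in Socs3. A match is letters in a window and no evidence of binding. The list was drawn up from known STAT and interferon response genes, and its members not called on both scales were not counted. The shares therefore cannot tie the letters to the side of the sums.

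Zbp1, a sensor of nucleic acid induced by interferon, was at 20.3, 23.7 and 21.4 CPM in Ctrl, 12.7, 8.51 and 10.9 in Dex, 16.5, 11.7 and 13.6 in IL27 and 25.4, 15.4 and 37.2 with both. Each agent lowered it, the combination was above both by the test and overlapped Ctrl and IL27, and its mean was 3.81 times the log2 sum (log2 interaction 1.93 ± 0.35, edgeR adjusted p = 0.00099). Irgm1, an immunity-related GTPase, was also lowered by each agent and above both with the combination, which overlapped Ctrl and not IL27, at 86.6 ± 6.23 CPM in Ctrl, 58.2 ± 2.77 in Dex, 56.3 ± 12.6 in IL27 and 99.1 ± 19.9 with both (SD, n = 3; log2 interaction 1.39 ± 0.21). Isg15, which encodes a ubiquitin-like modifier, fell with IL27 alone (3.64 ± 1.58 CPM against 7.73 ± 0.61 in Ctrl). It was at 9.23 ± 2.79 CPM with both (log2 interaction 1.43 ± 0.39). Its linear call was lost with the replicate block and with some single libraries left out, and its log2 call with limma on unfiltered FPKM. Irf7, a transcription factor that amplifies interferon responses, was at 17.6 ± 3.57, 26.3 ± 0.37, 14.5 ± 2.02 and 40.9 ± 7.49 CPM in Ctrl, Dex, IL27 and Dex+IL27, all 3 combination libraries being above all others. Libraries of 1 group spread widely for these genes, Dex+IL27 replicate 2 being the lowest of its group for Zbp1, Irgm1, Isg15 and Irf7.

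The largest positive interactions on both scales included further interferon-induced genes, Ly6c2, Rtp4, Iigp1, Mx1 and Cmpk2. Of the 12 largest, 9 had a promoter in the set searched, and 0 of these held the ISRE letters. The linear calls of Iigp1 and Mx1 were each lost in several alternatives. Ly6c2, a surface marker of CD8 memory and effector cells with close family members, was at 109, 181 and 72.3 CPM in Ctrl, 17.2, 15.2 and 15.5 in Dex, 106, 42.9 and 61.5 in IL27 and 131, 56.4 and 146 with both. Dex libraries lay below all others, and the combination overlapped IL27 and Ctrl (log2 interaction 3.58 ± 0.54). Rtp4, a chaperone of receptors, averaged 6.63 CPM in Ctrl, 9.84 in Dex, 1.80 in IL27 and 16.0 with both, 6.00 times the log2 sum, with a linear call that was lost in several alternatives. Gadd45b, a stress-response gene, went from a mean of 31.9 CPM in Ctrl to 11.1 in Dex and 19.2 in IL27 and stood at 25.7 with both (log2 interaction 1.95 ± 0.25, edgeR adjusted p = 7.96e-05).

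Below both sums stood genes that cytokine signals through STAT proteins are known to induce and that restrain or follow those signals. Socs1, which encodes an inhibitor of JAK kinases, was at 60.7, 98.5 and 97.2 CPM in Ctrl, 164, 155 and 147 in Dex, 62.7, 80.5 and 88.5 in IL27 and 45.5, 45.8 and 43.6 with both. Dex raised it, IL27 libraries overlapped Ctrl, and all combination libraries were the lowest of the 12 (log2 interaction -1.64 ± 0.22, edgeR adjusted p = 0.000107). Cish, another SOCS family gene that IL2 induces, was at 464 ± 3.57 CPM in Ctrl, 515 ± 4.67 in Dex, 345 ± 69.8 in IL27 and 203 ± 17.3 with both (SD, n = 3), 0.530 times the log2 sum. Socs2 went from 118 CPM in Ctrl to 168 in Dex, 65.6 in IL27 and 39.7 with both (log2 interaction -1.24 ± 0.12), and the kinase gene Pim2 from 38.1 to 80.1, 39.4 and 30.4. Socs3, a feedback inhibitor of gp130 receptors, was raised by each agent, to 123 ± 8.72 CPM by Dex and 62.8 ± 3.57 by IL27 from 45.2 ± 9.83, and was at 84.9 ± 4.93 with both, below Dex alone by the test. Samhd1, a nucleotide phosphohydrolase, belonged to this side in another way: it was 142 CPM in Ctrl, 498 in Dex, 490 in IL27 and 685 with both, higher than each agent but 0.399 times the log2 sum.

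Among 24 interleukin and interferon receptor genes none was above the log2 sum and 11 were below (45.8%; median -0.40), against 13.7% and 14.7% of all genes. On the linear scale 1 was above and 10 below, against 16.8% and 9.63% of all genes. Il12rb2, a chain of the IL12 receptor, was raised from 344 CPM to 529 by Dex and 535 by IL27 and stood at 402 with both. Ifngr2, a chain of the interferon gamma receptor, was raised by Dex from 11.6 to 30.1 CPM, lowered by IL27 to 7.47 and lower still, 4.77, with both. Il6ra, the IL6 receptor, was near 0 in Ctrl (0.089 ± 0.081 CPM), 5.00 ± 1.68 in Dex, 0.378 ± 0.28 in IL27 and 0.660 ± 0.17 with both. Il7r, the IL7 receptor and a glucocorticoid target, was at 136, 359, 294 and 514 CPM in the same order, above each agent. Like Tsc22d3 it was below its log2 sum (log2 interaction -0.59), a call lost with limma on unfiltered FPKM. Unlike Tsc22d3 it had no linear interaction past the test. Costimulatory and TNF family genes had 4 of 20 above the log2 sum and 8 below (20% and 40%, against 13.7% and 14.7% of all genes; median -0.54), with the same counts on the linear scale. Tnfrsf9 (4-1BB), an activation-induced costimulatory receptor, was at 1221, 1036 and 1124 CPM in Ctrl, 1467, 1476 and 1503 in Dex, 1521, 1856 and 1979 in IL27 and 1089, 1041 and 1216 with both. Each agent raised it past all Ctrl libraries, and with both it overlapped Ctrl (log2 interaction -1.07 ± 0.12, edgeR adjusted p = 3.3e-05). Tnfrsf18 (GITR) was at 253, 687, 481 and 436 CPM in the group order, and Slamf1 at 38.9, 89.6, 40.4 and 36.4. On the other side Cd27, a costimulatory receptor that neither agent moved by the test (48.9, 52.1 and 57.1 CPM), rose to 94.2 CPM with both.

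Of 25 inhibitory receptors and ligands tested, 4 were above the log2 sum (16%, near the 13.7% of all genes) and 9 below (36%, against 14.7% of all genes; median -0.45). On the linear scale 5 were above and 10 below (16.8% and 9.63% of all genes). Tigit, an inhibitory receptor for CD155, was at 87.5, 75.7 and 82.6 CPM in Ctrl, 115, 121 and 121 in Dex, 124, 121 and 117 in IL27 and 304, 249 and 287 with both. Each agent raised it clear of Ctrl by a small step (log2 change 0.54 ± 0.08 with Dex and 0.56 ± 0.08 with IL27), against 1.77 ± 0.08 with both. Its mean of 280 ± 28.3 CPM (SD, n = 3) was 1.77 times the linear sum and 1.59 times the log2 sum (log2 interaction 0.67 ± 0.11, edgeR adjusted p = 0.00049; linear 122 ± 12.7 CPM). Adora2a, the receptor through which adenosine restrains T cells, followed it: 12.4, 10.2 and 11.9 CPM in Ctrl, 12.8, 16.6 and 16.0 in Dex, 15.7, 15.6 and 15.4 in IL27 and 32.7, 28.2 and 33.0 with both (log2 interaction 0.61 ± 0.17). Each agent raised Adora2a by the test, and no combination library overlapped another group. Lag3, an inhibitory receptor for MHC class II, was raised by each agent and further by both (147, 323, 396 and 636 CPM); it was 1.11 times the linear sum and its log2 interaction of -0.45 ± 0.14 lost its call in 6 alternatives. Havcr2 (TIM-3) was at 30.9, 46.7, 27.3 and 58.7 CPM with no interaction past the test (log2 0.51 ± 0.28, edgeR adjusted p = 0.202).

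Below both sums were 8 inhibitory genes, Lilrb4, Nt5e, Entpd1 and Klrc1 among them. Lilrb4, an inhibitory receptor whose symbol covers near-identical copies in the mouse, was at 120, 128 and 132 CPM in Ctrl, 248, 242 and 221 in Dex, 103, 130 and 147 in IL27 and 44.6, 41.8 and 38.3 with both. Dex raised it clear of Ctrl, IL27 overlapped Ctrl, and with both it was below every other library (log2 interaction -2.51 ± 0.15, edgeR adjusted p = 1.58e-07). Of the ectoenzymes that make adenosine, Nt5e (CD73) was at 12.3 CPM in Ctrl, 61.5 in Dex, 25.4 in IL27 and 29.2 with both, and Entpd1 (CD39) at 28.1, 51.7, 112 and 107, in each case overlapping IL27 alone; the linear call of Entpd1 was lost with any of 7 libraries left out (adjusted p up to 0.104). Adora2b, another adenosine receptor, was raised by Dex from 15.4 ± 0.60 to 58.8 ± 4.38 CPM and by IL27 to 21.4 ± 2.55, and stood at 11.7 ± 1.72 with both, below all 3 other groups (log2 interaction -2.81 ± 0.17).

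Il10 and the factors known to drive it did not move together. Il10 was at 0.720, 1.36 and 0.313 CPM in Ctrl, 104, 97.4 and 87.9 in Dex, 5.66, 6.74 and 10.4 in IL27 and 85.6, 65.8 and 65.9 with both. Each agent raised it, Dex by far the more, and the combination libraries lay just below the Dex libraries, a difference that did not pass the test (log2 change -0.41 ± 0.18, edgeR adjusted p = 0.102). The mean of 72.5 ± 11.4 CPM with both (SD, n = 3) was 0.079 times the log2 sum of 917 CPM (log2 interaction -3.68 ± 0.39). Against the linear sum of 103 CPM it was 0.703 times, a call (adjusted p = 0.0486 by the Wald test on the edgeR fit) lost when any of 6 libraries was left out (Ctrl 1, each Dex library, and Dex+IL27 2 and 3; adjusted p up to 0.144). Prdm1, which encodes the repressor BLIMP-1, went the other way: 8.09, 10.5 and 10.6 CPM in Ctrl, 11.4, 11.6 and 7.77 in Dex, 18.2, 14.6 and 11.3 in IL27 and 23.0, 31.4 and 34.3 with both. Dex libraries overlapped Ctrl, and no combination library overlapped another group. It was 1.94 times the linear sum (linear interaction 14.4 ± 3.47 CPM, adjusted p = 0.00669); the log2 interaction of 0.93 ± 0.29 (edgeR adjusted p = 0.0258) lost its call in 7 alternatives, 6 of them single libraries left out (Ctrl 2 and 3, Dex 3, IL27 3, Dex+IL27 2 and 3), with adjusted p up to 0.101.

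Maf, a transcription factor that acts on Il10 in T cells, was at 0.055, 0.113 and 0 CPM in Ctrl, 1.17, 2.08 and 1.99 in Dex, 1.98, 1.14 and 3.68 in IL27 and 16.1, 16.7 and 15.2 with both. The combination was above every other library and 4.05 times the linear sum of 3.96 CPM (linear interaction 12.1 ± 2.35 CPM, adjusted p = 0.00159). With Ctrl near 0 the log2 sum cannot be placed: the log2 interaction was -2.02 ± 0.86 in edgeR and 1.21 with limma on FPKM. Of the 10 genes of this list, 2 were above the log2 sum (Prdm1 and Batf) and 4 below (20% and 40%, against 13.7% and 14.7% of all genes), and 4 were above and 2 below on the linear scale (16.8% and 9.63% of all genes). The log2 call of Batf (edgeR adjusted p = 0.0326) was lost in 8 alternatives and its linear call in 10. Nfil3 rose from 36.3 CPM to 102 with Dex, 132 with IL27 and 164 with both, and Bhlhe40, a factor that opposes Il10, was raised by IL27 alone (671 CPM against 490) and was at 462 with both.

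Some effector genes that both agents lowered, Prf1 and Gzmb among them, were less lowered than the log2 sum. Prf1, which encodes perforin, was at 787, 660 and 614 CPM in Ctrl, 213, 251 and 243 in Dex, 315, 358 and 333 in IL27 and 459, 337 and 532 with both. All single-agent libraries were below Ctrl, and the combination was above every Dex library and, by the test, above IL27 (log2 change 0.40 ± 0.13, edgeR adjusted p = 0.0362), though 1 of its libraries lay within the IL27 range. Its mean of 443 ± 98.8 CPM was 3.85 times the log2 sum of 115 CPM (log2 interaction 1.94 ± 0.19, edgeR adjusted p = 7.58e-06). Gzmb, the main granzyme, was at 10540 ± 740 CPM in Ctrl, 4116 ± 164 in Dex, 6059 ± 321 in IL27 and 4581 ± 527 with both, near Dex alone and 1.936 times the log2 sum. Of 20 cytotoxic granule genes 6 were above the log2 sum and 4 below (30% and 20%, against 13.7% and 14.7% of all genes; median 0.64). Gzma was on the other side: 138 CPM in Ctrl, 2139 in Dex, 688 in IL27 and 2555 with both, 0.950 times the linear sum and 0.239 times the log2 sum. Gzmd, which shares sequence with neighbouring granzyme genes, was at 0 in all Dex libraries, so no log2 interaction is given for it.

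Of 23 cytokine and chemokine genes, 7 were above the log2 sum (30.4%, against 13.7% of all genes) and 4 below (17.4%, near the 14.7% of all genes; median 0.85), and 15 were above the linear sum, but the linear sum was below 0 for 15 of the 23. Several stood near the Dex level with both agents. Ifng was at 1180, 907 and 831 CPM in Ctrl, 5.68, 24.4 and 14.4 in Dex, 58.0, 187 and 195 in IL27 and 14.3, 5.91 and 16.2 with both. The combination overlapped Dex and lay below IL27, and the difference from Dex did not pass the test (log2 change -0.28 ± 0.51, edgeR adjusted p = 0.715). Ccl3 and Ccl4, inflammatory chemokines, were at 43.2 and 74.3 CPM with both, against 38.6 and 59.1 in Dex and 581 and 345 in Ctrl. Lif and Il24 were lower with both than with either by the test: Lif, an IL6 family cytokine, was 193 CPM in Ctrl, 51.9 in Dex, 30.5 in IL27 and 3.62 with both, and Il24, an IL10 family cytokine, 308, 208, 171 and 26.3. The log2 call of Lif (edgeR adjusted p = 0.0445) was lost in 13 alternatives. Tgfb3 and Ccl5 were raised by the pair: Ccl5, a chemokine of memory CD8 cells, was at 9.93, 13.8, 50.8 and 120 CPM in the group order, 2.20 times the linear sum (linear interaction 65.8 ± 14.3 CPM, adjusted p = 0.00341), with no log2 interaction past the test.

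Most growth genes were lowered less than the log2 sum. Of 31 cell cycle and DNA synthesis genes, 19 were above the log2 sum (61.3%, against 13.7% of all genes) and 2 below, and 12 of 20 ribosome biogenesis genes were above and none below, with medians of 0.44 and 0.57. Dex lowered 26 of the 31 and 19 of the 20 (27.4% of all genes), and IL27 lowered 28 and 18 (28.1% of all). Lower with both agents than in each of the other groups were 11 of the 31 and 12 of the 20 (8.13% of all genes). Of all genes lowered by each agent, 51.9% were above the log2 sum, not far from the 61.3% and 60% of these lists. The linear sum was below 0 for 12 of the 31 and 11 of the 20, so being above it says little for those. Rrm2, a subunit of ribonucleotide reductase, was at 570, 593 and 548 CPM in Ctrl, 130, 156 and 146 in Dex, 94.6, 104 and 97.8 in IL27 and 54.4, 65.7 and 62.1 with both. No groups overlapped, and the combination mean of 60.7 ± 5.74 CPM was 2.44 times the log2 sum of 24.9 CPM (log2 interaction 1.28 ± 0.11, edgeR adjusted p = 3.64e-06). Ncl, nucleolin, was at about the same level in all 3 treated groups: 1514 CPM in Ctrl, 894 in Dex, 863 in IL27 and 858 with both. Below the log2 sum were Ccnd3, a D-type cyclin (665, 334, 805 and 287 CPM), and Cdk6, its kinase (92.9, 111, 135 and 90.9). Since all changes are shares of the RNA in a library, a change in total RNA per cell is not seen here.

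Of 17 cell cycle brakes, 1 was above the log2 sum and 7 were below (5.88% and 41.2%, against 13.7% and 14.7% of all genes; median -0.36). Gadd45g, a stress-response gene, was at 106, 121 and 112 CPM in Ctrl, 97.6, 116 and 98.7 in Dex, 85.6, 106 and 109 in IL27 and 34.7, 39.6 and 36.0 with both. Neither agent moved it by the test, and all combination libraries were the lowest of the 12 (log2 interaction -1.33 ± 0.14, edgeR adjusted p = 2.01e-05). Btg1, an antiproliferative gene, and Cdkn2d, an inhibitor of cyclin-dependent kinases, were raised by each agent and at 91.2 and 156 CPM with both, 0.412 and 0.586 times the log2 sum. Among 18 apoptosis genes, 5 were above (27.8%) and 3 below (16.7%, near the background; median 0.09). Bcl2a1b, a survival gene with near-identical copies, was at 75.1 ± 6.29, 70.6 ± 2.83 and 81.4 ± 10.7 CPM in Ctrl, Dex and IL27, overlapping throughout, and 142 ± 11.6 with both (log2 interaction 0.89 ± 0.14). Fas, a death receptor, was at 32.6, 88.3, 70.1 and 101 CPM.

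Of 17 naive and memory genes, 2 were above the log2 sum (11.8%, near the 13.7% of all genes) and 7 below (41.2%, against 14.7% of all genes; median -0.26). Tcf7, which encodes the memory factor TCF1, was at 21.4, 17.9 and 24.6 CPM in Ctrl, 20.7, 18.4 and 18.9 in Dex, 11.8, 16.0 and 12.2 in IL27 and 3.59, 3.05 and 7.37 with both. Dex alone overlapped Ctrl, and no combination library overlapped another group (log2 interaction -1.36 ± 0.34, edgeR adjusted p = 0.00772; linear not past the test). Of 23 transcription factors of effector and dysfunctional cells, 3 were above and 5 below (13% and 21.7%, not far from all genes; median -0.08). Tbx21 (T-bet) was lowered by Dex alone, 33.2 CPM against 55.6, and at 72.9 with both. Of 23 AP-1, EGR and NF-kB genes, 3 were above and 5 below (again 13% and 21.7%; median -0.10), and Fosl2 and Relb, raised by each agent, were below both sums. Of 22 trafficking and adhesion genes, 5 were above and 6 below (22.7% and 27.3%; median 0.16). Cholesterol and fatty acid synthesis had 4 of 23 above and 1 below (17.4% and 4.35%; median 0.13), and glycolysis and hypoxia 1 of 20 above and 3 below (5% and 15%; median -0.12), where the shares of 17.4% and 15% are near those of all genes. Fasn, fatty acid synthase, went from 292 CPM to 145 with each agent and 122 with both, and Ldha, lactate dehydrogenase, from 4996 to 2747 with Dex, 3610 with IL27 and 2898 with both.

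**Figure D3:**
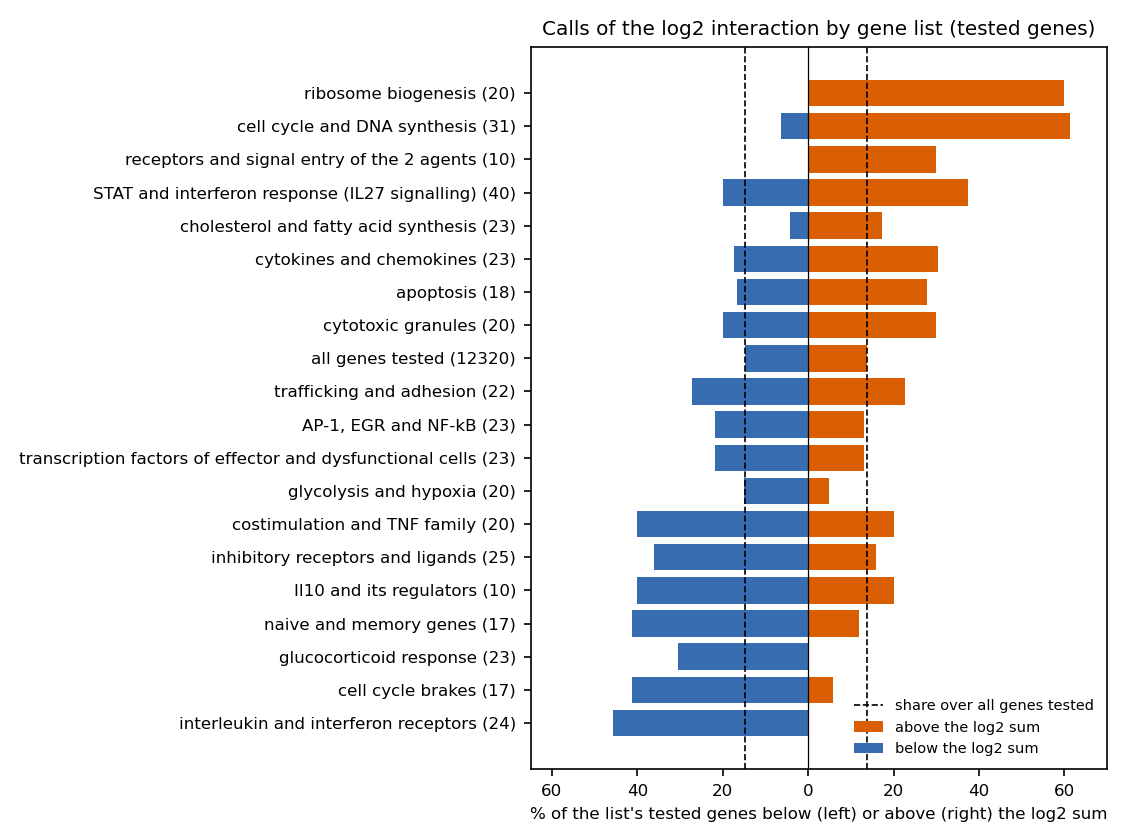
Bars give, for each gene list other than the cell type markers, the percent of its tested genes above (right) and below (left) the log2 sum. Numbers tested are in brackets, and dashed lines mark the shares over all genes. Of all genes raised by each agent 53.7% were below the log2 sum, and of those lowered by each 51.9% were above. Cell cycle (61.3%) and ribosome biogenesis (12 of 20) reach farthest to the right, and interleukin and interferon receptors (45.8%) farthest to the left.

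Of the 12 largest negative interactions called on both scales, 11 were of genes that each agent raised alone. The exception was Tnfrsf11b, which IL27 lowered. Enpp2 (autotaxin) was at 0.474 CPM in Ctrl, 19.7 in Dex, 4.54 in IL27 and 11.2 with both (log2 interaction -4.05 ± 0.36), and Ecm1, an extracellular matrix gene, at 1.78, 43.3, 15.4 and 40.9. Angptl6, a secreted angiopoietin-like factor, was 11.6 ± 1.16 CPM in Ctrl, 45.5 ± 3.77 in Dex, 45.8 ± 7.64 in IL27 and 26.2 ± 2.36 with both, with the combination below every single-agent library. Fam114a1 was at 1.49, 10.4, 14.1 and 12.2 CPM. Vim, vimentin, was at 1929 ± 37.3, 4084 ± 198, 3636 ± 662 and 3466 ± 244 CPM in the group order, with no difference past the test between the combination and either agent. Among the largest positive ones, Olr1, a scavenger receptor gene, was at 12.3 CPM in Ctrl, 0.143 in Dex, 2.72 in IL27 and 0.269 with both, and Ugt1a10, whose exons other Ugt1a genes share, at 31.0, 0.411, 4.01 and 0.431. Their log2 calls were lost with any of 7 libraries left out for Olr1 (adjusted p up to 0.148) and in 11 alternatives for Ugt1a10 (up to 0.185).

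Of the 12320 genes, 141 (1.14%) were moved up by 1 agent and down by the other, 76 up with Dex and down with IL27 and 65 the reverse, and without IL27 replicate 1 there were 134. With both agents the level lay nearer to IL27 alone for 87 of the 141 and nearer to Dex alone for 54. On a scale where IL27 is 0 and Dex is 1 on log2, the median place was 0.37. By the test the combination differed from Dex and not from IL27 for 60 genes, from IL27 and not from Dex for 29, and from both for 52. Against Ctrl 33 were higher, 47 lower and 61 not called, and 26 lay outside the range of the single agents. Of the 141, 16 were above the log2 sum and 20 below it (11.3% and 14.2%, near the 13.7% and 14.7% of all genes). On the linear scale 5 were above the sum and 44 below it (3.55% and 31.2%, against 16.8% and 9.63% of all genes). For opposite changes the log2 sum is by arithmetic lower than the linear sum. A gene at its log2 sum thus lies below its linear sum, so the linear shares say little about this class.

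Plaur, the urokinase receptor, was at 3.21, 2.03 and 2.56 CPM in Ctrl, 104, 105 and 105 in Dex, 0.226, 0.114 and 0.053 in IL27 and 17.2, 14.7 and 13.8 with both. All groups were apart, and IL27 took the Dex level down to 0.149 times the linear sum while the pair stayed above Ctrl (log2 change 2.55 ± 0.15). The linear interaction was -87.0 ± 5.83 CPM (adjusted p = 6.97e-07 by the Wald test on the edgeR fit). The log2 interaction was 1.48 ± 0.43 in edgeR. With limma on FPKM it was -1.29 at pseudocount 1 and 0.61 at pseudocount 0.1. IL27 alone was near 0, and the cause of the difference was not tested. Gata3, a transcription factor, was at 22.5, 19.7 and 27.2 CPM in Ctrl, 47.2, 45.2 and 41.4 in Dex, 14.2, 10.7 and 13.4 in IL27 and 12.9, 11.0 and 13.4 with both. The combination overlapped IL27 and lay below Ctrl (log2 interaction -0.98 ± 0.19, edgeR adjusted p = 0.00184). Nrp1 (neuropilin-1) and St6gal1, a sialyltransferase, likewise ended with the IL27 libraries, at 3.66 and 1.98 CPM, and Furin, a protease, between its levels of 54.2 CPM in Dex and 7.81 in IL27. The inhibitory receptors Pdcd1 (PD-1) and Ctla4 were also in this class and stayed near the log2 sum. On the linear scale Pdcd1 was not called and Ctla4 was below the sum. That call of Ctla4 was lost with the replicate block and with Dex replicate 2 left out. Pdcd1 was at 118 ± 7.07 CPM in Ctrl, 234 ± 29.8 in Dex, 68.5 ± 9.13 in IL27 and 173 ± 31.8 with both (log2 interaction 0.35 ± 0.18, edgeR adjusted p = 0.176), and Ctla4 at 175 ± 10.1, 363 ± 25.4, 122 ± 8.58 and 249 ± 5.29 (log2 interaction -0.02 ± 0.10, edgeR adjusted p = 0.896).

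Among genes lowered by Dex and raised by IL27, Filip1, which encodes a filamin-binding protein, was at 17.9, 12.8 and 15.2 CPM in Ctrl, 2.96, 4.65 and 4.54 in Dex, 52.7, 48.1 and 52.4 in IL27 and 49.7, 47.1 and 58.6 with both. IL27 and the combination overlapped (log2 interaction 1.94 ± 0.22, edgeR adjusted p = 2.58e-05). The chemokine receptor gene Ccr2 also overlapped IL27, at 25.8 CPM in Ctrl, 8.56 in Dex, 131 in IL27 and 101 with both. Ifitm1, an interferon-induced membrane protein, settled between, at 276 ± 55.9, 126 ± 20.5, 831 ± 17.2 and 421 ± 11.3 CPM, with a log2 interaction of 0.15 ± 0.17. Aqp9, a water and glycerol channel known in memory CD8 cells, was nearer to Dex: 9.81 CPM in Ctrl, 2.40 in Dex, 29.9 in IL27 and 5.08 with both. S100a6 and Megf11 had means between the agents, at 104 and 11.9 CPM. Sval1 and Speer1-ps1 (a pseudogene with many close copies) were near 0 in Dex, and Serpina3f and Serpina3g, closely related serpins raised by Dex and lowered by IL27, varied widely within groups (21.8 to 87.6 CPM for Serpina3f in Dex), so their places are uncertain.

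**Figure D4:**
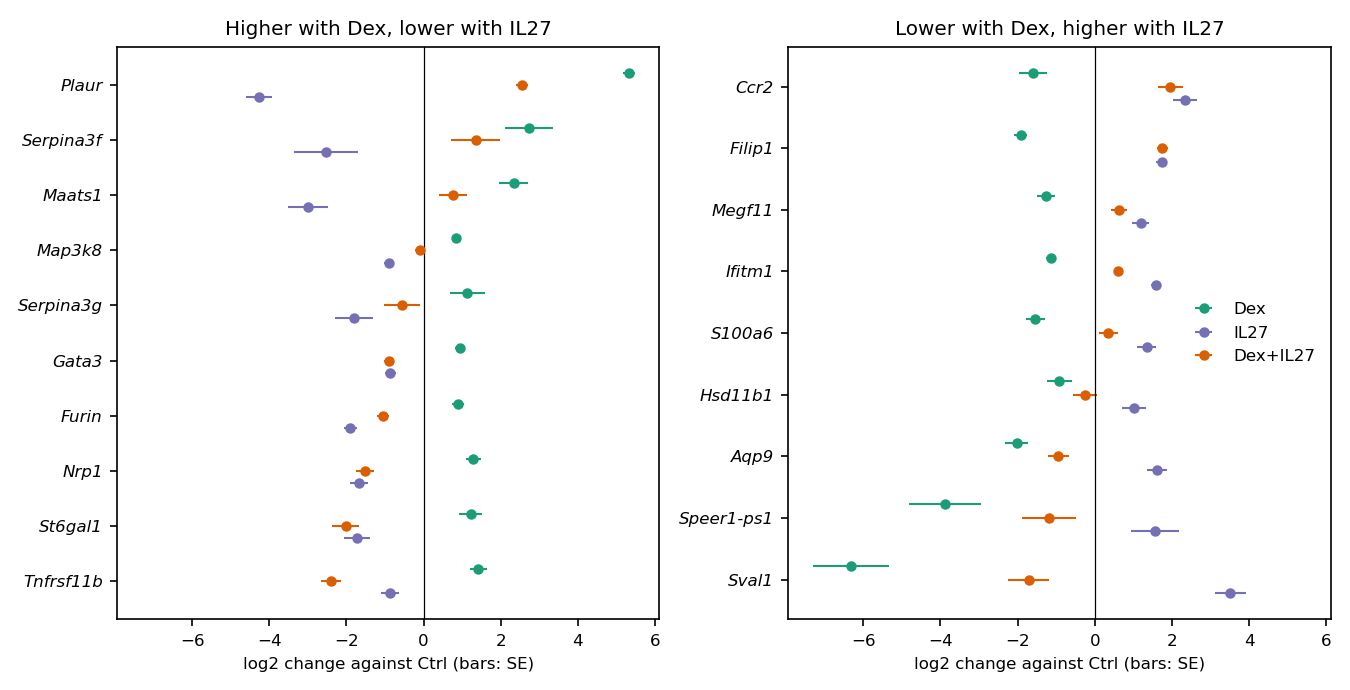
Points are log2 changes against Ctrl with Dex (green), IL27 (purple) and both (orange), bars are SE, for genes of each direction with the largest smaller change, 10 on the left and 9 of the 10 on the right. Orange points lie at or near purple for Gata3, Nrp1, Filip1 and Ccr2, near green for Aqp9, and between for Plaur and Ifitm1.

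In 302 genes (2.45%; 351 without IL27 replicate 1) the change made by 1 agent passed the test in one direction alone and in the other in the presence of the second agent. This was the Dex response for 183 genes (1.49%), the IL27 response for 186 (1.51%) and both for 67. Most turned from up to down: 127 of the 183 and 131 of the 186. Of the 302, 175 were raised by each agent and 76 lowered by each. Bcl2, a survival gene, was at 293, 321 and 302 CPM in Ctrl, 689, 617 and 592 in Dex, 329, 419 and 478 in IL27 and 166, 166 and 167 with both. Each agent raised it clear of Ctrl, and the combination was lower than every other library. Dex changed it by 1.05 ± 0.10 on log2 without IL27 and by -1.30 ± 0.10 with IL27, and the mean of 167 ± 0.53 CPM was 0.196 times the log2 sum (log2 interaction -2.35 ± 0.15, edgeR adjusted p = 1.58e-07).

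Rhoc, a small GTPase of cell shape and movement, turned for both agents: 5.77 ± 0.61 CPM in Ctrl, 17.6 ± 0.39 in Dex, 16.3 ± 0.57 in IL27 and 8.19 ± 0.43 with both (SD, n = 3), below both and above Ctrl. Mcf2l and Arhgef10, guanine nucleotide exchange factors, and Espn, an actin-bundling protein, were raised by each agent and stood at 8.91, 16.4 and 8.62 CPM with both, against the higher single-agent means of 30.7, 38.1 and 31.9. Bzrap1 (a synaptic scaffold gene) went from 16.7 CPM to 57.0 with Dex, 204 with IL27 and 88.1 with both, so IL27 raised it in each setting while Dex raised it alone and lowered it with IL27. Crispld2, a secreted protein gene, and Phyhd1 were raised by IL27 alone and lower with both than with Dex, with levels of 3.09, 32.7, 9.93 and 9.22 CPM and 5.49, 31.7, 13.9 and 10.8 CPM in the group order. Tnfrsf11b (osteoprotegerin, a decoy receptor for RANKL) was raised by Dex from 9.31 ± 1.83 to 25.0 ± 3.06 CPM, lowered by IL27 to 5.09 ± 2.06 and at 1.76 ± 0.36 with both, the lowest of the 4 groups (log2 interaction -2.96 ± 0.36).

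**Figure D5:**
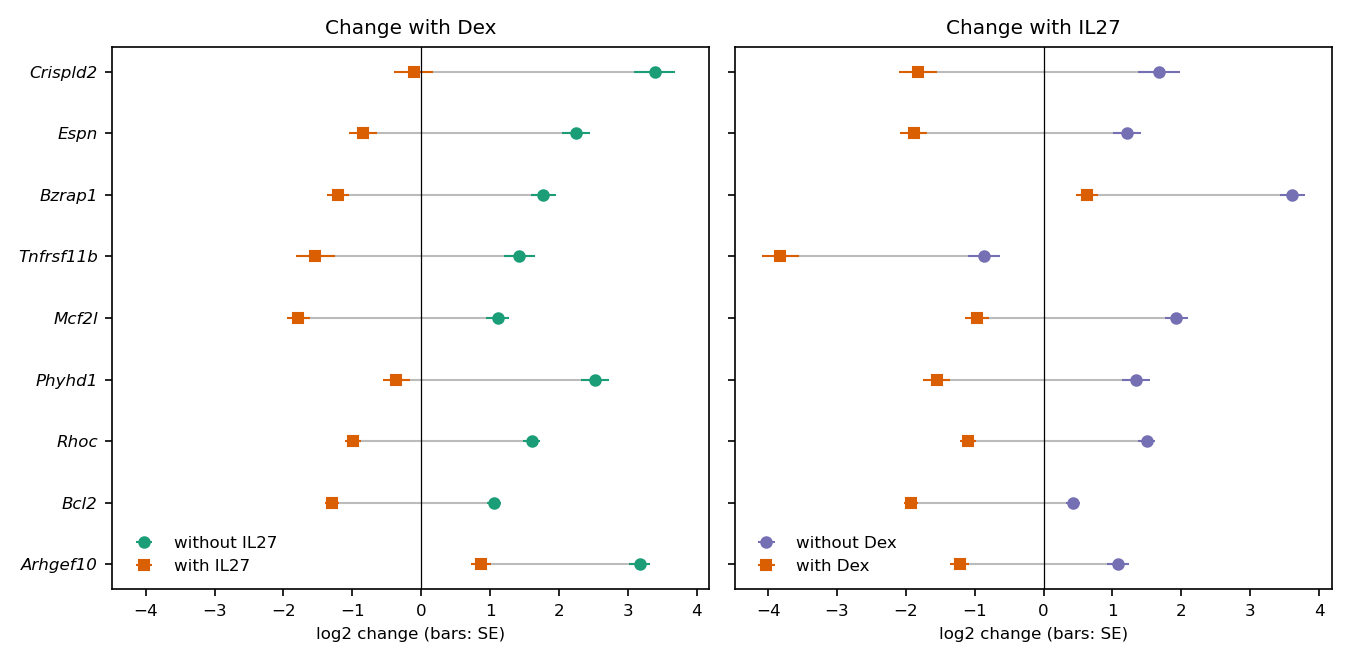
For 9 genes, circles give the log2 change with Dex (left) or IL27 (right) without the other agent and squares the change in its presence, with SE. Circles right of 0 and squares left of it mark a response that turned round, as for Bcl2, Rhoc and Mcf2l in both panels.

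With both agents 731 genes (5.93%) were above Ctrl, above Dex and above IL27 by the tests, and 1002 (8.13%) were below all 3. Of the 731, 61 were above the log2 sum, 203 below and 467 not called. Of the 1002, 127 were below the log2 sum, 332 above and 543 not called. In 93 of the 731 and 123 of the 1002 neither agent alone passed the test; Bcl2a1b, Cd27 and Gadd45g above are of this kind.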

How the data were processed

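RNA was measured in mouse CD8+ T cells, in 12 day 9 libraries of 3 per group, and the libraries were grouped by their labels. The authors deposited expected counts per gene made with RSEM, which are estimated from reads and need not be whole, and FPKM values; per the submitters' processing notes the tools were TopHat, RSEM and DESeq with the mm9 build, and versions are not given in the sources used here. Library totals of 16091050 to 19018440 counts limit precision mainly for genes of a few CPM.

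The counts were rounded and analysed in edgeR 4.0.16 (R 4.3.3) with TMM scaling and filterByExpr (minimum count 10, minimum total 15), which kept 12320 of 23366 genes. The log2 interaction was tested with the quasi-likelihood F-test, and the linear interaction in CPM with a two-sided Wald test by the delta method on the same fit. Both were adjusted by Benjamini-Hochberg over all genes tested, with calls at an adjusted p under 0.05 and a prior count of 0.125 for log2 values. The scripts were tested on simulated data. Alternatives were other scalings, no low-count filter, Rn45s left out, DESeq2 1.42.0, limma 3.58.1 on the FPKM values deposited by the authors (pseudocounts 1 and 0.1, on the log2 scale) and on CPM, all 24 libraries in 1 fit, a replicate block, each library left out, and an adjusted p under 0.01.

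The genes, lists and tests were chosen with earlier results of these data known. Genes were named by rule: a fixed set (Il10, Tigit, Tsc22d3 and others); per list, the 4 or fewer with the smallest p of the log2 interaction; and, where some group averaged 10 CPM or more, those with the largest interactions on both scales, those between the sums, the largest opposite changes and the largest reversed responses. Adora2a, Hip1r, Zbp1, Irgm1, Isg15, Irf7, Bst2, Igtp, Cish, Bcl2a1b, Gzma, Ccl5, Cd27, Entpd1, Il7r, Mt1, Mt2, Batf, Ccnd3, Cdk6 and Il24 were named after their values were seen. Promoters came from RefSeq (GRCm38.p6) and were matched by symbol. Values of some genes are not reported here.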

Additional observations from a re-analysis of the deposited data

Results flagged for a closer look

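For the genes below the change made by 1 agent had opposite signs without and with the other agent, and the difference itself, the log2 interaction, passed edgeR's quasi-likelihood test. The interaction was -2.35 for Bcl2, -2.60 for Rhoc, -2.99 for Bzrap1, -2.895 for Mcf2l, -2.96 for Tnfrsf11b, -3.09 for Espn, -2.89 for Phyhd1, -3.50 for Crispld2 and -2.30 for Arhgef10. Over all genes 302 met this description with both changes also past the test. The cause was not tested.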

How the results depend on the processing

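Of 332 called values of named genes, 256 kept their call in every alternative tried and 76 lost it in at least 1. The count of genes with opposite changes was 87 with limma on FPKM without a filter and 70 at an adjusted p under 0.01, and that of reversed responses was 201 and 108. At that threshold 1903 genes had a log2 and 1919 a linear interaction. With single libraries left out the counts ran from 2881 to 3571 for the log2 interaction, 2691 to 3281 for the linear one, 6115 to 7069 for Dex, 6378 to 7206 for IL27, 7722 to 8418 for the combination against Ctrl, 2780 to 4357 against Dex and 2161 to 3964 against IL27. Opposite changes then ran from 102 to 145 and reversed responses from 203 to 351. With limma on FPKM (pseudocount 1, filtered or not) the log2 interaction changed sign for 5031414D18Rik (0.41), Maf (1.21), Plaur (-1.29) and Sval1 (-2.41), which have a group near 0. Deviations of same-numbered libraries from their group means correlated at -0.18 to 0.305, with 4 of 18 pairs over 0.1. The median was -0.005, against 0.015 for libraries with different numbers. With so few libraries per group, these correlations cannot decide whether equal replicate numbers mark a shared source. With the replicate block the counts were 3443 (log2), 3013 (linear), 6752 (Dex), 7028 (IL27), 8135, 3882 and 3197 (combination against Ctrl, Dex and IL27), 141 opposite and 303 reversed. Causes were not tested.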
